A study of Mus musculus with 56 samples.

Results

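Livers taken late after genomic excision of miR-122 were compared with livers at its nadir, to see which transcripts came back towards the uninjected level and which moved further away as part of the miR-122 returned. All RNA-seq libraries of these stages were used: 1 mouse at day 100 and 1 at day 200 after Cre delivery (the late livers), against 3 mice at day 45 (replicates A, B and C). Genes were members if their mean over these 5 livers was at least 1 FPKM (fragments per kilobase of transcript, scaled to the library's size, and thus an expression level per transcript length), which 11770 of the 21888 symbols in the table met. The 5 mice carried loxP sites around miR-122 on a 129Sv/J background and were given a rAAV vector with Cre by tail vein. Cre was driven by the Ef1a promoter, which is not specific to hepatocytes. For reference, the same table holds 3 uninjected mice of the floxed line (day 0), 3 floxed mice at day 21 after the vector and 3 germline miR-122 knockout mice, whose labels name no vector. The labels give neither the sex nor the age of the mice.

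miR-122 is made almost only in hepatocytes, where it is the most abundant microRNA, and it represses messenger RNAs that pair with its seed. Igf2, a fetal growth factor, and H19, a noncoding RNA, are neighbouring imprinted genes that are active in the fetal liver and are silenced after birth. Meg3, Rian and Mirg are noncoding RNAs of the imprinted Dlk1-Dio3 region on chromosome 12 and host small RNAs, among them a large microRNA cluster. Kupffer cells are the resident macrophages of the liver, and monocytes from the blood supply further macrophages to an injured liver.

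In small RNA libraries of these time points, miR-122 made up 73.3%, 59.2% and 66.7% of microRNA reads in the 3 uninjected livers. It made up 0.908%, 0.383% and 1.23% at day 45, 4.46% at day 100 and 19.1% at day 200, so both late livers lay above all day 45 livers and below all uninjected ones. Each late share is that of 1 library without a replicate, and for day 200 the study describes further mice that were not analysed here, so 19.1% is the value of that library and not a level for the stage. Whether the small RNA and RNA-seq libraries with the same letter come from the same mouse is not stated.

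Several facts about the libraries touch the results. Each of the 5 livers gave 13906 to 14433 genes at 0.1 FPKM or more, against 12826 to 13162 in the uninjected livers, and the table holds FPKM without read numbers, so the depth behind a value is unknown. Day 45 liver C contained transcripts of Y-linked genes (Eif2s3y at 34.7 FPKM) and 0.023 FPKM of Xist, the RNA of the inactive X chromosome, whereas the other 4 livers had 39.8 to 71.6 FPKM of Xist and at most 0.036 FPKM of each Y-linked transcript. Over the whole series 4 of 14 livers had Y-linked transcripts, 1 each at day 0, at day 21, at day 45 and among the knockouts, and none of the late livers did. Beside the counts below, the comparison is therefore also given with a term for Y-linked transcripts in the fit. Day 45 liver B was nearer to the late livers than its 2 companions were: Pearson's r of log2(FPKM + 1) over the 11770 genes was 0.981 with day 100 and 0.976 with day 200 for B, 0.959 and 0.962 for A, and 0.947 and 0.951 for C. Albumin, the main hepatocyte transcript, is listed at 0 in all 14 libraries, but the other secreted proteins of hepatocytes were present (27 of 29 tested, summed FPKM 69330 to 102700 in the 5 livers), so the tissue was judged by those.

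Few genes passed the test between the stages. With limma on log2(FPKM + 1) and a Benjamini-Hochberg adjusted p under 0.05, 44 genes were higher late (0.374% of the 11770) and 6 were lower (0.051%), 50 in all (0.425%). At an unadjusted p under 0.05 the numbers were 830 (7.05%) and 171 (1.45%). Both late livers lay above all 3 day 45 livers for 2838 genes (24.1%) and below all of them for 866 (7.36%). The median difference of all genes was 0.11 on the log2 scale, and list medians below are to be read against that value. With the Y term 36 genes were higher (0.306%) and 9 lower (0.0765%), and 41 of the 50 genes passed again. Without the 4 livers that have Y-linked transcripts 62 were higher (0.527%) and 12 lower (0.102%), and 35 of the 50 passed again. With only the 5 livers in the fit 3 were higher and 0 lower, and 1 of the 50 passed again. Most of the 50 calls thus rest on a spread estimated with the day 0, day 21 and knockout livers. The number rests on single day 45 livers: it was 6 without A, 231 without B and 6 without C. It was 9 without the day 100 liver and 13 without the day 200 liver. Of the 50 genes themselves, 6 still passed without A, 50 without B, 5 without C, 6 without day 100 and 11 without day 200. All 50 kept their direction in each of these fits. Dpt, Nctc1 and Tmeff2 passed with each of the day 45 livers left out in turn, but Nctc1 and Tmeff2 met the 1 FPKM minimum only through the late livers.

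**Figure D1:**
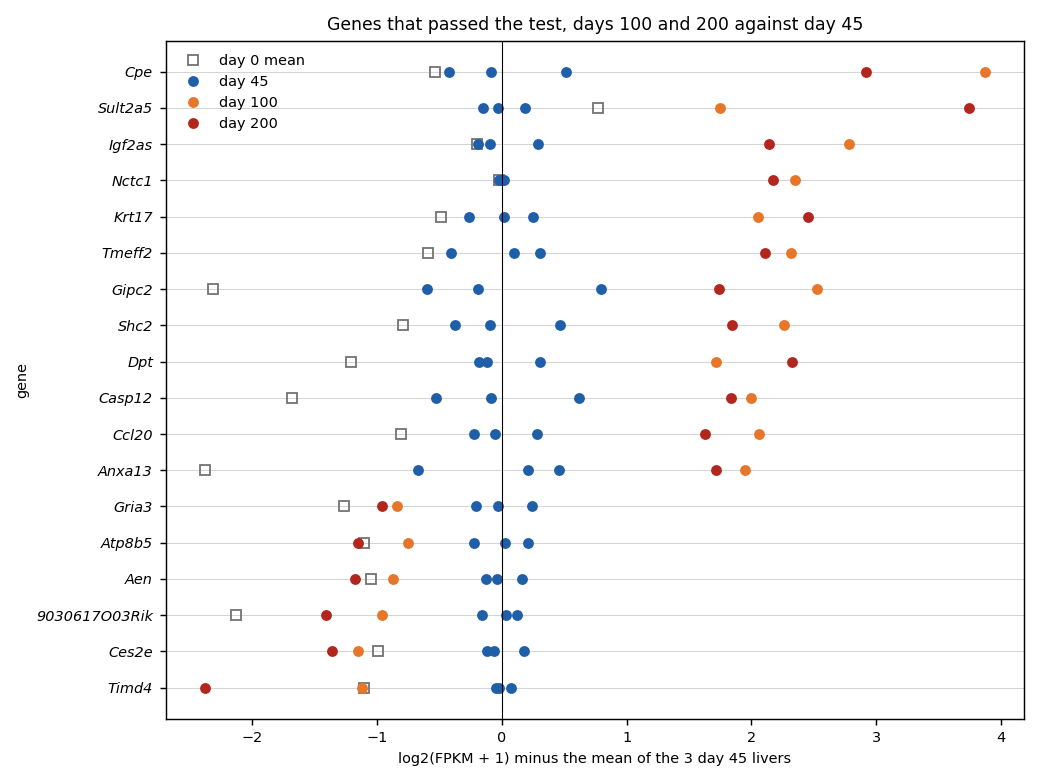
The 12 genes with the largest rise and the 6 that fell, 1 row per gene, on a log2(FPKM + 1) axis counted from the mean of the 3 day 45 livers. Filled points are single day 45, day 100 and day 200 livers and open squares are day 0 means; the day 100 point of Cpe lies farthest to the right, and the day 0 squares of the 6 falling genes lie on the same side as their late points.

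Most genes that rose were already above day 0 at day 45. The log2 differences of the 44 ran from 0.76 to 3.40 and those of the 6 that fell from −1.75 to −0.90. Among the 44, the day 45 mean exceeded the day 0 mean in 36, and in 43 both late livers lay above every uninjected liver. These were mostly transcripts of low level, with a day 0 mean under 1 FPKM for 29 and a day 45 mean under 5 FPKM for 35. Of the 44, 23 had a day 45 mean under 1 FPKM and met the minimum only through the late livers, as did 223 genes in all. Such genes had to differ to be tested, so their number supports nothing, although all 23 also passed in the fit without a minimum. Those of the 23 described below are Tmeff2, Ccl20, Krt17, Sult2a5, Shc2, Esm1, Raet1e, Nctc1, Igf2as, Lect1, Xcr1 and Cd209a. The day 100 liver was the higher of the late pair in 30 of the 44. The germline knockout mean stood above the day 45 mean in 30 and below the late mean in 41. Of the 44, 30 were also among the 2322 genes that were higher in knockout than in uninjected livers (19.7% of all genes). Both calls come from 1 fit with a shared estimate of each gene's spread, and 23 of the 44 had to differ to be tested, so this overlap supports nothing. For those 2322 genes as a whole both late livers lay above day 45 in 36.5% and below in 3.66%, against 24.1% and 7.36% of all genes, and the median was 0.26 (0.40 without day 45 liver B). Liver B was the highest day 45 liver in 38 of the 44.

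The neuropeptide-processing enzyme carboxypeptidase E (Cpe) had the largest rise among the 44. It stood at 1.12, 3.06 and 1.68 FPKM in day 45 livers A, B and C, at 40.8 at day 100 and at 20.5 at day 200. The late livers thus lay far above the highest day 45 liver, with a mean 15.7-fold higher (log2 difference 3.40, SE 0.61, limma adjusted p = 0.033). Uninjected livers had a mean of 1.07 FPKM, day 21 livers 0.898 and knockouts 9.42, so the rise came after day 45 in the floxed livers.

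Tmeff2, a transmembrane protein with follistatin-like domains, had one of the lowest p of the 50. It measured 0.181, 0.675 and 0.930 FPKM at day 45 against 6.80 and 5.73 late (log2 difference 2.21, SE 0.18, limma adjusted p = 0.00017). Its uninjected mean was 0.0353 FPKM and its knockout mean 8.39. The scaffold protein Gipc2 rose from 2.75, 8.88 and 4.00 FPKM to 31.8 and 18.0 (log2 difference 2.13, limma adjusted p = 0.020, and 0.069 without the livers that have Y-linked transcripts), near its knockout mean of 21.6 and far from its uninjected mean of 0.150. A gene on the other strand overlaps Gipc2, and the strand setting of the libraries is not stated, so reads of the pair cannot be told apart.

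Dermatopontin (Dpt), a small protein that binds decorin in connective tissue, rose from 10.9, 15.7 and 11.4 FPKM to 43.5 and 66.7 (log2 difference 2.02, SE 0.23, limma adjusted p = 0.0047). It was past the threshold in 17 of 18 fits, the main one and its alternatives, and missed it with only the 5 livers in the fit (limma adjusted p = 0.057). Its knockout mean was 14.1 FPKM, close to the day 45 values. Bmp6, the ligand that raises hepcidin in response to iron, rose from 2.93, 4.05 and 4.68 FPKM to 11.1 and 8.84, 2.57-fold on the means (limma adjusted p = 0.046, and 0.055 with the Y term). It was the only 1 of 20 tested iron genes past the threshold.

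Casp12 and Casp4, neighbouring genes of inflammatory caspases, both rose. Casp12 went from 3.42, 8.82 and 5.01 FPKM to 24.5 and 21.8 (limma adjusted p = 0.038), and Casp4, which senses cytosolic lipopolysaccharide, from 3.76, 5.31 and 4.37 to 14.4 and 12.5 (limma adjusted p = 0.049, and 0.057 with the Y term). In the germline knockout both were low, with means of 2.83 and 1.17 FPKM. Ccl20, a chemokine for CCR6-bearing lymphocytes and dendritic cells, was listed at 0 in all 3 uninjected livers and rose from 0.505, 1.13 and 0.683 FPKM to 6.32 and 4.41 (log2 difference 1.84, limma adjusted p = 0.012), against a knockout mean of 0.668.

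Anxa13, Slc5a1, Vil1 and Krt17, set together here after their values were seen, are each known from gut, duct or skin epithelium. Anxa13, an annexin of intestinal and biliary epithelium, went from 4.93, 11.99 and 9.92 FPKM to 35.5 and 29.9, 3.65-fold on the means (limma adjusted p = 0.020). Slc5a1, the sodium-glucose cotransporter of the intestinal brush border, went from 4.09, 8.38 and 4.80 to 20.6 and 18.8 (limma adjusted p = 0.020). Villin (Vil1), which bundles actin in microvilli, went from 1.16, 2.55 and 2.08 to 7.92 and 6.86 (limma adjusted p = 0.029). Krt17, a keratin of stratified epithelium, went from 0.219, 0.735 and 0.476 to 5.06 and 7.00 (limma adjusted p = 0.020). In the knockout Vil1 stood at a mean of 25.6 FPKM, above the late livers, and Krt17 at 1.65, below them. Genes on the other strand overlap Slc5a1 and Vil1.

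Sult2a5, a sulfotransferase with close relatives in its gene family, went from 0.134, 0.314 and 0.042 FPKM to 2.89 and 14.5 (limma adjusted p = 0.038), and the late livers differed most here among the 12 largest rises. Shc2, an adaptor of receptor tyrosine kinases, went from 0.419, 1.55 and 0.728 to 7.83 and 5.61 (limma adjusted p = 0.011). Esm1, a proteoglycan secreted by endothelial tip cells, went from 0.194, 0.377 and 0.202 to 1.99 and 2.34 (limma adjusted p = 0.0068), while its uninjected mean of 0.310 and knockout mean of 0.169 FPKM were no higher than day 45 liver B. No other group had a mean near the late level of Esm1. Gzmk on the other strand overlaps Esm1, so reads of this pair cannot be told apart either. Raet1e, a ligand of the NK cell receptor NKG2D, went from 0.343, 0.818 and 0.432 FPKM to 3.74 and 4.09 (limma adjusted p = 0.014), above an uninjected mean of 1.79, with knockouts at 0.244. Dusp16, a phosphatase of JNK and p38 kinases, had an uninjected mean of 12.4 FPKM and a day 21 mean of 14.7, and was 11.7, 14.5 and 11.99 at day 45 and 25.8 and 23.2 late (limma adjusted p = 0.022).

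The Igf2-H19 domain on chromosome 7 held 2 of the 44 rising genes, both noncoding, and Igf2 had the highest log2 difference of all 11770 genes, though it did not pass. Of 25 imprinted genes tested none passed (8 were higher and 0 lower at an unadjusted p under 0.05), both late livers lay above day 45 for 9 (36%) and below for 3 (12%), against 24.1% and 7.36% of all genes, and the median was 0.34. In mm9 coordinates of the table, Nctc1 lies at chr7:149730513-149744503, H19 at chr7:149761436-149764051, Igf2 at chr7:149836672-149846940 and the antisense transcript Igf2as at chr7:149845597-149856261. Nctc1 ends 16.9 kb before H19 begins, H19 ends 72.6 kb before Igf2 begins, and Igf2as runs on the opposite strand and overlaps Igf2 by 1.34 kb. In the mm9 annotation of GENCODE M1, where Igf2 is longer, that overlap is 7.12 kb, and the microRNA gene Mir675 (chr7:149762969-149763052) lies inside an exon of H19, and Mir483 (chr7:149840829-149840901) lies within Igf2 outside its annotated exons.

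Igf2 was 39.8, 255 and 3.66 FPKM at day 45 in A, B and C, and 2932 and 2374 at days 100 and 200. The late livers did not overlap with day 45, but the day 45 livers differed among themselves by a wide margin, from a value near the uninjected 0.200 to 1.82 FPKM up to the 255 of liver B. On the log2 scale the late livers were 6.18 higher (SE 1.25), 26.7-fold on the means, with a limma adjusted p of 0.064 that missed the threshold (0.059 with the Y term). Igf2 did pass without the livers that have Y-linked transcripts (limma adjusted p = 0.023). Leaving out day 45 liver B gave a difference of 7.58 and an adjusted p of 0.0048, and leaving out day 45 liver C one of 4.69 and 0.12. Germline knockouts ranged from 469 to 3169 FPKM, so both late livers lay within the knockout range.

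H19 was 392, 845 and 66.3 FPKM at day 45 and 2539 and 2486 late, against 0.415 to 2.03 in uninjected livers and 1727 to 4008 in knockouts. The order of the day 45 livers, B above A above C, was that of Igf2. The late livers were 5.78-fold higher on the means (log2 difference 3.16, SE 0.96), and the limma adjusted p of 0.25 did not pass.

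Nctc1, a noncoding RNA beyond H19, was listed at 0 in every uninjected liver and at 0, 0.028 and 0.016 FPKM at day 45. It reached 4.16 and 3.57 late, a difference of 2.26 (SE 0.16) on the log2(FPKM + 1) scale with the lowest p of the 50 genes (limma adjusted p = 6.6e-05), while the knockouts had 0.089 to 0.658 FPKM. Igf2as went from 0.073, 0.397 and 0.004 FPKM to 6.88 and 4.05 (log2 difference 2.46, limma adjusted p = 0.011). Without strand, reads of Igf2as in the overlap, which is most of the transcript in GENCODE M1, cannot be told apart from those of Igf2. Both genes met the 1 FPKM minimum only through the late livers. Nctc1 was past the threshold in all 16 fits that tested it (highest limma adjusted p = 0.021), among them the 1 without a minimum, and the minimum over all 14 libraries and that of 5 FPKM left it untested. Igf2as was past it in 13 of 17.

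The small RNA libraries list both microRNAs of this domain. The mature arms of miR-483 and miR-675 are shown because the rows of these microRNAs were higher in both late libraries, although which arm was counted is not known; the sequences are from RefSeq on GRCm38.p6, minus strand of chromosome 7, with the seed (bases 2 to 8) in capitals.
mmu-miR-483-5p: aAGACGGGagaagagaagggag
mmu-miR-483-3p: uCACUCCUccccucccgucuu
mmu-miR-675-5p: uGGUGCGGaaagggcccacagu
mmu-miR-675-3p: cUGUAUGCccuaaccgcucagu
No seed is shared among the 4 arms. In RPM (reads scaled to the library's size) over all microRNAs other than miR-122, miR-483 was listed at 0 in the uninjected livers and had 75.6, 383 and 0 RPM at day 45 in A, B and C, then 4553 at day 100 and 3518 at day 200. On the same scale miR-675 had 37.8, 98.4 and 9.52 RPM at day 45, then 596 and 215. Both late libraries thus exceeded all 3 day 45 libraries for both microRNAs, and day 45 library B was the highest of its group, as it was for Igf2 and H19. With 2 libraries against 3 no test was made on these values.

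**Figure D2:**
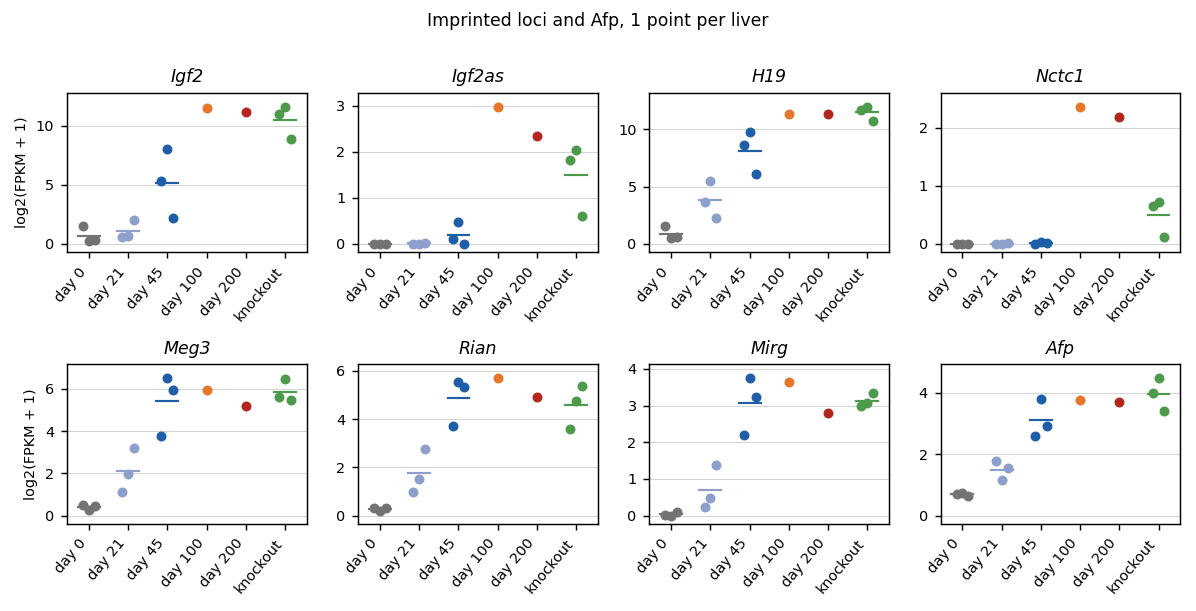
FPKM by liver of genes from both imprinted domains and of Afp, on log2(FPKM + 1) axes that differ in range, with groups along the horizontal axis, 1 point per mouse and a bar at each mean of 3 mice. Igf2, H19, Nctc1 and Igf2as were higher in both late livers than in every day 45 liver, while the late values of Meg3, Rian and Mirg lay among those of day 45 but for Rian at day 100, which was above them.

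The Dlk1-Dio3 noncoding RNAs did not separate late from day 45 livers. Meg3 measured 12.7, 89.4 and 61.3 FPKM at day 45 and 61.3 and 35.2 late (log2 difference 0.16, SE 0.70, limma adjusted p = 0.99). Rian measured 12.01, 45.6 and 38.9 against 50.8 and 29.0, and Mirg 3.56, 12.4 and 8.45 against 11.5 and 5.89. The late values of Meg3 and Mirg lay within the day 45 range, and Rian exceeded it only at day 100. In each of these genes the day 200 value was below the day 100 value, and the late means of 48.3, 39.9 and 8.70 FPKM compare with uninjected means of 0.307, 0.198 and 0.0253. The sign of the difference is not settled: without day 45 liver A it was −0.66 for Meg3, −0.13 for Rian and −0.28 for Mirg. The cluster's microRNA miR-127 likewise had 9499 and 8458 RPM late on the same scale, inside the day 45 span of 819 to 18684. For miR-376a the late 11222 and 12266 lay above the day 45 values of 2104, 9090 and 7012.

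Among the other fetal liver transcripts, Afp (alpha-fetoprotein) was 5.10, 12.8 and 6.53 FPKM at day 45 and 12.5 and 12.1 late (limma adjusted p = 0.68), so the late livers lay within the day 45 range. Gpc3, a surface proteoglycan of fetal liver, was 1.59, 2.38 and 2.12 against 2.49 and 5.96 (limma adjusted p = 0.67). Scd2, a fatty acid desaturase prominent in the fetal and neonatal liver, rose from 5.73, 11.5 and 6.63 FPKM to 34.1 and 20.1, 3.40-fold on the means (limma adjusted p = 0.049, 0.055 with the Y term and 0.090 without the livers that have Y-linked transcripts). It was the only 1 of 19 tested oncofetal genes past the threshold. Both late livers lay above day 45 for 7 of the 19 (36.8%, against 24.1% of all genes), and the list median was 0.72. This list includes Igf2, whose difference of 6.18 was its highest, so it is not separate from the imprinted genes above.

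Genes that returned towards the uninjected level were few. Of the 6 that fell, all had a day 45 mean above the day 0 mean, and in 4 a late liver came within or below the uninjected range. The 6 were chosen for day 45 values above the late ones, which favours both counts. The median level of the tested genes was also higher at day 45 than at day 0, so both counts support nothing. Of the 6, 5 belonged to the 748 genes that were higher at day 21 than at day 0 (6.36% of the genes). This count supports nothing, since the same fit and spread gave both calls and 2 of the 5, Atp8b5 and Gria3, met the 1 FPKM minimum only through the day 45 livers. For the 748 genes both late livers lay below day 45 for 96 (12.8%) and above for 204 (27.3%), against 7.36% and 24.1% of all genes, and their median was 0.12 (−0.080 with quantile scaling).

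Ces2e, a hepatic carboxylesterase, was below the uninjected range in both late livers. It was 96.6 to 123 FPKM in uninjected livers, a mean of 208 at day 21, 238, 193 and 202 at day 45, and 94.0 and 81.1 late. The late livers were below the lowest uninjected liver, and the fall by 1.26 on the log2 scale (SE 0.19) passed with a limma adjusted p of 0.020. Knockouts, at 88.0 to 127 FPKM, lay around the uninjected level. Ces2e belongs to a family of similar carboxylesterase genes, among which reads may be divided with error.

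9030617O03Rik, now known as the D-glutamate cyclase gene Dglucy, was 79.1, 69.2 and 84.1 FPKM at day 45 and 39.1 and 28.4 late, still above the uninjected 13.8 to 18.8 (limma adjusted p = 0.021). Gm8482 on the other strand overlaps this gene. Aen, a nuclease induced by p53, was 10.7, 8.58 and 9.15 at day 45 and 4.70 and 3.61 late, with uninjected livers at 3.79 to 4.54 (limma adjusted p = 0.022, and 0.054 without the livers that have Y-linked transcripts). Atp8b5, a phospholipid flippase, went from 1.93, 1.58 and 1.17 FPKM to 0.506 and 0.146, and Gria3, a glutamate receptor subunit, from 1.87, 2.46 and 1.54 to 0.642 and 0.505 (limma adjusted p = 0.029 and 0.037). The germline knockout means of these genes were below day 45 too, at 30.0 FPKM for 9030617O03Rik, 2.41 for Aen, 0.131 for Atp8b5 and 0.318 for Gria3. Of the next genes below day 45, which missed the threshold, 4632434I11Rik was 2.01, 2.52 and 2.08 FPKM against 1.08 and 0.312 (limma adjusted p = 0.077), and Abhd6, a lipase that degrades an endocannabinoid, 32.5, 19.9 and 23.4 against 13.1 and 12.9 (limma adjusted p = 0.093). 2610019F03Rik was 6.40, 6.84 and 7.08 against 4.07 and 2.95 (limma adjusted p = 0.096). In all 6 falling genes the day 200 liver was lower than the day 100 liver and the knockout mean was below the day 45 mean. The choice of genes with high day 45 values favours the latter.

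Rises back towards the uninjected level were found for 2 of the 156 genes that were lower at day 21 than at day 0. These 156 were 1.33% of all genes tested. Lect1, 1 of the 2, met the 1 FPKM minimum only through the late livers, so the count supports nothing. Aqp8, a hepatocyte water channel, was 144 to 192 FPKM uninjected, a mean of 59.0 at day 21, 51.9, 27.9 and 40.5 at day 45, and 97.6 and 136 late (2.91-fold, limma adjusted p = 0.043, and 0.053 with the Y term). Both late livers remained below the lowest uninjected liver. Lect1 (chondromodulin), a cartilage glycoprotein that inhibits vessel growth, was 1.17 to 2.54 FPKM uninjected, 0.348, 0.460 and 0.249 at day 45 and 3.26 and 2.73 late (8.50-fold, limma adjusted p = 0.0068), above every uninjected liver. In the knockout both were below the uninjected mean, with means of 56.9 and 0.564 FPKM. Over the set of 156, both late livers lay above day 45 for 25% of the genes, close to the 24.1% of all genes.

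**Figure D3:**
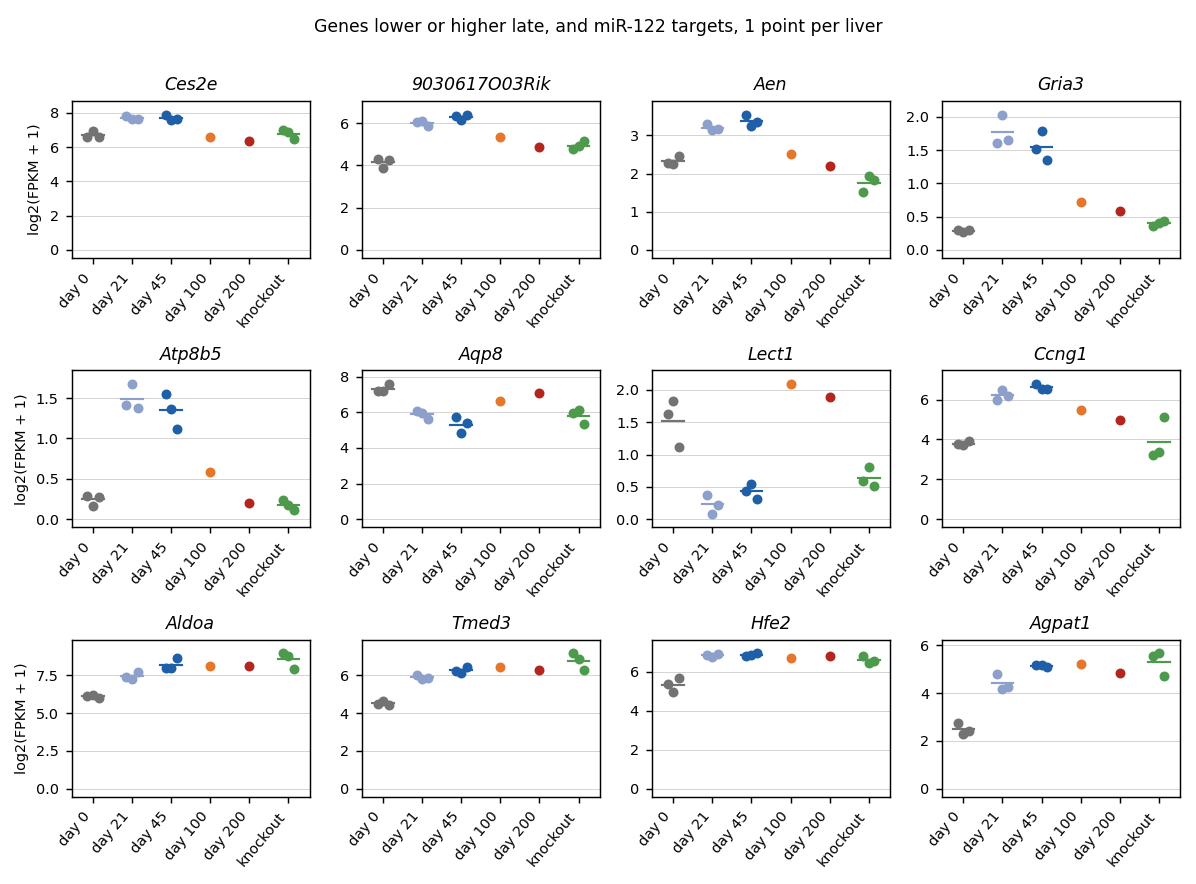
FPKM by liver of 7 genes whose late values lay nearer to day 0 than those of day 45 and of 5 direct targets of miR-122 (Ccng1, Aldoa, Tmed3, Hfe2 and Agpat1), on log2(FPKM + 1) axes that differ in range, with 1 point per mouse and a bar at each mean of 3 mice. The late points of Ces2e, Aen and Aqp8 do not overlap with day 45, whereas those of Aldoa, Tmed3 and Hfe2 do and lie above every day 0 point.

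Known direct targets of miR-122 were, in sum, still far above the uninjected level. Over the 17 genes of this list the summed FPKM was 216 to 229 in the uninjected livers, 728, 740 and 892 at day 45, 782 at day 100 and 696 at day 200. None passed the limma test (at an unadjusted p under 0.05, 3 were higher and 1 lower). Both late livers lay above day 45 for 6 of them (35.3%) and below for 2 (11.8%), against 24.1% and 7.36% of all genes, and the list median of 0.16 compared with 0.11 for all genes.

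Aldoa, a glycolytic aldolase and one of the classic targets, was 257, 255 and 397 FPKM at day 45 and 280 and 274 late, against an uninjected mean of 68.2. Tmed3, a cargo receptor, was 73.8, 69.0 and 87.3 against 86.3 and 76.5, with an uninjected mean of 22.1. Hfe2 (hemojuvelin), the co-receptor through which BMP signals raise hepcidin, was 111, 118 and 123 against 104 and 113, with an uninjected mean of 40.0. For these genes the late values overlapped with day 45 and lay above the uninjected mean. Of the 128 predicted targets tested, none passed with limma (5 higher and 2 lower at an unadjusted p under 0.05), both late livers lay above day 45 for 22 (17.2%, against 24.1% of all genes) and below for 7 (5.47%, against 7.36%), and the median was 0.11, that of all genes. The same list had a median of 0.44 at day 21 over day 0, with 23 genes higher past the threshold (18%, against 6.36% of all genes) and 1 lower (0.781%, against 1.33%).

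Ccng1 (cyclin G1) had the lowest difference among the direct targets. It was 12.2 to 13.9 FPKM uninjected, 109, 91.6 and 90.7 at day 45 and 43.3 and 30.1 late, and its late livers were separate from both groups, although the limma adjusted p of 0.26 did not pass. In the germline knockout, which lacks miR-122, Ccng1 was 8.27, 9.32 and 33.5 FPKM. Ccng1 is also a p53 target and is counted in the list that follows.

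Genes of the p53 and senescence response were lower late than at day 45 on balance. Of 25 tested, Aen fell and none rose by limma (8 lower and 0 higher at an unadjusted p under 0.05). Both late livers lay below day 45 for 11 (44%, against 7.36% of all genes) and above for 3 (12%, against 24.1%), and the list median was −0.29. The difference was negative in 15 members and positive in 10. These 11 were Gdf15, Ccng1, Eda2r, Cdkn1a, Aen, Plk2, Mdm2, Phlda3, Zmat3, Bax and Sesn2. The stress sensor Sesn1 and the cell death gene Bbc3 were among those above. Trp53, Trp53inp1, Gadd45a, Gadd45b, Ei24, Fas and Pmaip1 had a positive difference with livers that overlapped. At day 21 over day 0 the same list had a median of 0.98, against 0.07 for all genes, with 11 genes higher (44%, against 6.36% of all genes) and 1 lower (4%, against 1.33%).

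Cdkn1a (p21), which arrests the cell cycle, was 44.7, 52.4 and 36.4 FPKM at day 45 and 17.5 and 19.9 late, against an uninjected mean of 2.57 (limma adjusted p = 0.59). Eda2r, a death-domain receptor, was 2.35, 3.44 and 3.89 against 1.03 and 0.267, with an uninjected mean of 0.121 (limma adjusted p = 0.11). In the germline knockout Eda2r was 0.016 to 0.195 FPKM, and Cdkn1a was 10.1 to 47.2. Both late livers were between the uninjected and the day 45 means for Cdkn1a, Ccng1 and Eda2r.

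Markers of resident and of recruited macrophages lay on opposite sides of day 45. Timd4, a receptor for apoptotic cells on long-lived Kupffer cells, fell from 14.2, 13.2 and 13.1 FPKM to 5.65 and 1.79 (log2 difference −1.75, SE 0.32, limma adjusted p = 0.037), and uninjected livers had 4.19 to 7.90. The call was lost without the livers that have Y-linked transcripts (limma adjusted p = 0.073) and without day 45 liver C alone (0.14). Of the 18 Kupffer genes tested, both late livers lay below day 45 for 10 (55.6%, against 7.36% of all genes) and above for 1 (5.56%, against 24.1%), and the median was −0.26.

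Clec4f, a lectin found only on Kupffer cells in the mouse, was 160, 148 and 152 FPKM at day 45 and 79.1 and 72.0 late, near its uninjected mean of 70.8 (limma adjusted p = 0.21). Cd163, the haptoglobin-haemoglobin scavenger receptor, was 13.3, 10.1 and 10.4 against 4.04 and 0.525 (limma adjusted p = 0.080). Cd5l, a secreted protein that keeps macrophages alive, was 232, 235 and 234 against 104 and 128 (limma adjusted p = 0.34). The gene that rose in this list, Xcr1 (0.493, 0.845 and 0.594 FPKM to 2.00 and 1.98, limma adjusted p = 0.020, and 0.070 without the livers that have Y-linked transcripts), is a chemokine receptor best known from cross-presenting dendritic cells. In bulk liver, fewer cells of a type and less RNA per cell cannot be told apart.

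For recruited macrophages and dendritic cells, both late livers lay above day 45 for 18 of 25 genes (72%, against 24.1% of all genes) and below for 1 (4%, against 7.36%), and the median was 0.78. Cd209a (DC-SIGN), a lectin of monocyte-derived dendritic cells, rose from 0.459, 0.990 and 0.863 FPKM to 2.43 and 2.19 (limma adjusted p = 0.030, and 0.074 without the livers that have Y-linked transcripts). The others missed the threshold. Cx3cr1, the fractalkine receptor, was 1.35, 5.79 and 1.95 FPKM against 13.6 and 10.0 (limma adjusted p = 0.077), and Trem2, a lipid-sensing receptor of macrophages in damaged tissue, 4.96, 8.94 and 6.47 against 13.4 and 16.3 (limma adjusted p = 0.58). Spp1 (osteopontin), which ductal cells also make, was 383, 1259 and 654 against 2866 and 1854 (limma adjusted p = 0.094). Mmp12, the macrophage elastase, was the 1 gene below, at 4.27, 3.78 and 6.74 against 2.85 and 0.845.

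Of 11 genes of MHC class II tested, both late livers lay above day 45 for 8 (72.7%, against 24.1% of all genes) and below for none, with a median of 0.89 and none past the limma threshold (1 higher at an unadjusted p under 0.05). H2-Ab1, a class II beta chain, was 123, 182 and 156 FPKM against 283 and 443. The summed FPKM of the list was 734, 1163 and 1003 at day 45 and 1720 and 2346 late, and 942 to 3786 in knockouts. Chemokines and their receptors followed, with 15 of 31 above (48.4%), 4 below (12.9%) and a median of 0.59.

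Interferon-stimulated genes lay on the other side. Of 37 tested, both late livers lay above day 45 for none and below for 11 (29.7%), against 24.1% and 7.36% of all genes, with a median of −0.29. Isg15, a ubiquitin-like modifier, was 58.7, 85.1 and 60.3 FPKM against 45.9 and 27.6 (limma adjusted p = 0.70), and its uninjected mean was 24.6. None of the 37 passed the limma test in either direction, and 2 were lower at an unadjusted p under 0.05. At day 21 over day 0 the list median was 0.87, against 0.07 for all genes, with 10 genes higher (27%, against 6.36% of all genes) and none lower. B and plasma cell genes had a median of 0.01, and T and NK cell genes one of 0.29 with 7 of 21 above (33.3%, against 24.1% of all genes).

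**Figure D4:**
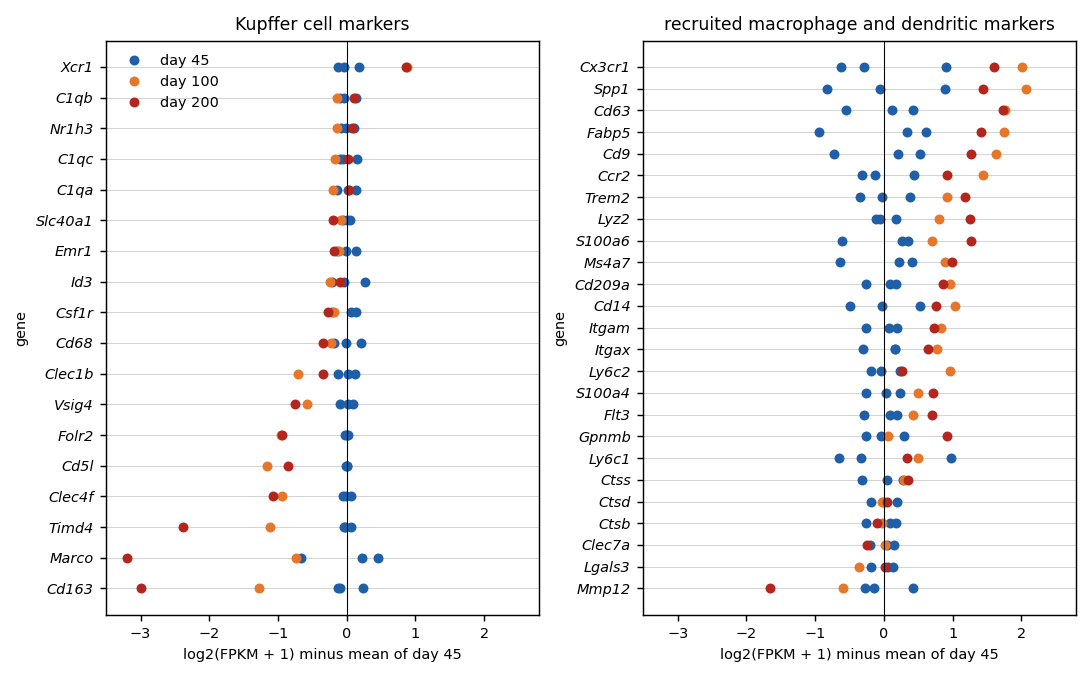
Markers of Kupffer cells (left) and of recruited macrophages and dendritic cells (right), 1 row per gene and 1 point per day 45, day 100 or day 200 liver, on a log2(FPKM + 1) axis counted from the day 45 mean. Of the Kupffer genes 10 of 18 had both late livers below day 45, and of the recruited cell genes 18 of 25 had both above.

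Among 21 ductal genes tested, Anxa13 rose, both late livers lay above day 45 for 5 (23.8%, close to the 24.1% of all genes) and below for none, and the median was 0.67. The defining duct markers overlapped: Krt19 was 5.78, 17.5 and 12.3 FPKM at day 45 against 15.0 and 19.4 late, Epcam 10.7, 36.4 and 20.5 against 24.4 and 29.6, and Sox9 1.82, 5.49 and 1.89 against 5.57 and 4.81. In each of these, day 45 liver B stood at or above the level of at least 1 late liver. The summed level of the list was 1023, 2150 and 1477 FPKM at day 45 and 3930 and 2731 late, and Spp1, which is in this list too, was its most abundant member in each of the 5 livers.

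Of 32 stellate cell and myofibroblast genes, both late livers lay above day 45 for 11 (34.4%) and below for 3 (9.38%), against 24.1% and 7.36% of all genes, with a median of 0.36 and none past the limma threshold (6 higher and 3 lower at an unadjusted p under 0.05). Lumican (Lum), a proteoglycan that spaces collagen fibrils, was 31.8, 71.8 and 33.7 FPKM against 117 and 140 (limma adjusted p = 0.093). Periostin (Postn), a matrix protein of activated stroma, was 16.1, 22.4 and 15.9 against 8.21 and 3.23 (limma adjusted p = 0.096), with an uninjected mean of 4.97. Collagens had a median of 0.14, close to that of all genes, and Col1a1, the main fibrillar collagen chain, was 7.20, 22.9 and 7.91 against 15.6 and 9.40. Matrix proteases and inhibitors had 8 of 19 above (42.1%), 1 below (5.26%) and a median of 0.64.

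Of the lists of hepatocyte metabolism, P450 enzymes and fatty acid oxidation lay below day 45 on balance, with no gene of either past the limma threshold (at an unadjusted p under 0.05, 6 P450 genes and 7 of fatty acid oxidation were lower, and 1 and 2 higher). Cytochromes P450 of families 1 to 4 had 17 of 57 genes below day 45 (29.8%) and 2 above (median −0.38), and genes of fatty acid oxidation and PPAR-alpha 13 of 35 below (37.1%) and 2 above (median −0.29), where 7.36% of all genes were below and 24.1% above. Their summed FPKM was 18968, 14477 and 18025 at day 45 against 10683 and 12644 late for the P450 enzymes, and 21180, 10068 and 11424 against 8177 and 7963 for fatty acid oxidation. In the second list day 45 liver A was far above B and C. The metabolic lists did not all lie on that side. Phase II enzymes had 6 of 34 genes below day 45 (17.6%) and 5 above (14.7%), with a median of −0.29. Cholesterol synthesis had 4 of 24 genes above day 45 (16.7%) and none below (median 0.32). Fatty acid and triglyceride synthesis had 5 of 23 above (21.7%), with Scd2 past the threshold, and none below (median 0.20). Gluconeogenesis and glycolysis had 3 of 24 on each side (12.5%, median 0.05). In all of these lists the share above was under the 24.1% of all genes, so the counts show no lean upward.

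Secreted hepatocyte proteins had a median of 0.005, with 2 genes above and 2 below of 27 (7.41% each, against 24.1% and 7.36% of all genes). Liver-enriched transcription factors had one of −0.13, with 1 of 20 genes above (5%) and 5 below (25%). The lectin Mbl2, which binds microbial mannose and starts the complement cascade, was 1499, 1283 and 1584 FPKM at day 45 and 459 and 258 late, 4.05-fold lower (limma adjusted p = 0.077). With the Y term its adjusted p was 0.029. The lists of sex-biased genes moved with the Y-linked transcripts: male-biased liver genes had a median of −1.55 and female-biased genes of 1.05, and with the Y term these became −0.68 and −0.38. Both late livers lay below all 3 day 45 livers, A and B without Y-linked transcripts included, for 11 of 21 male-biased genes (52.4%, against 7.36% of all genes) and above for 1, and above for 4 of 20 female-biased genes (20%, against 24.1%). Cholesterol synthesis, at 0.32, became 0.003, and fatty acid and triglyceride synthesis, at 0.20, became 0.081.

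**Figure D5:**
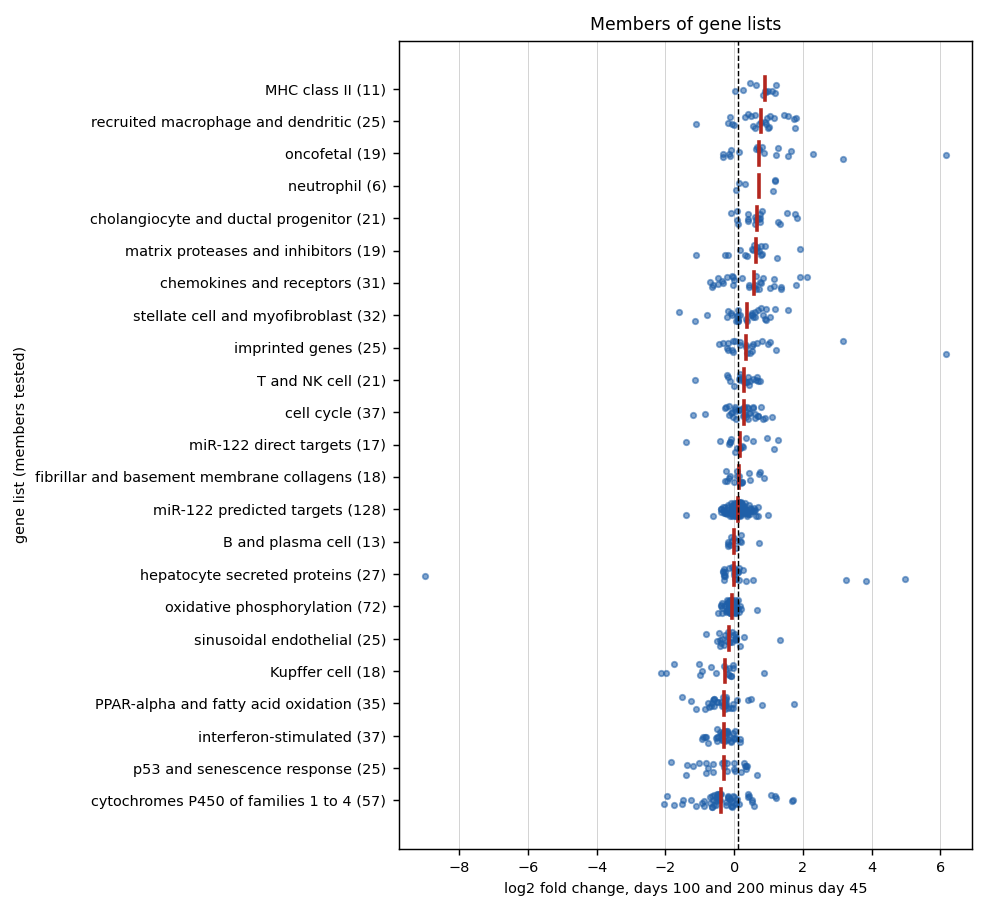
Log2 fold change of late over day 45 livers for the members of 23 gene lists, 1 point per gene, with a red bar at each list's median and a dashed line at the median of all genes, 0.11. Recruited macrophage, MHC class II and oncofetal lists lay to the right of it, and P450, p53, interferon and Kupffer lists to the left.

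The 2 late livers differed in fewer genes than any pair of day 45 livers did. At least 2-fold apart on the log2(FPKM + 1) scale were 94 genes higher at day 200 (0.799%) and 88 lower (0.748%), against 274 to 340 genes in all for pairs of day 45 livers. With 1 mouse a day these values carry no test. Rgs16, a regulator of G protein signals with a daily rhythm in liver, was 6.04 FPKM at day 100 and 64.7 at day 200, with 4.01 to 7.63 at day 45 and an uninjected mean of 47.8. Marco, a scavenger receptor of Kupffer cells, was 27.6 and 4.20, against 29.0, 54.6 and 64.3 at day 45. The other genes with the largest rises to day 200 were Sult2a7, a sulfotransferase (0.341 and 5.87 FPKM, but 2.32 to 89.6 at day 45), and 3 small nucleolar RNAs (Snora15, Snora31 and Snora70), a class of which sequences were filtered by the authors. Serpina1a and Serpina1c, near-identical copies of the alpha-1-antitrypsin gene, had the largest falls. Serpina1c was listed at 860 FPKM at day 100 and at 0 in every other liver of the 5, and how reads were divided among the copies was not tested. Gbp11, an interferon-induced GTPase, was 15.8 and 3.04 against 18.4 to 27.4 at day 45, and Gadd45g, a stress-response gene, 42.6 and 9.56 against 19.9 to 49.6. For Igf2 and H19 the log2 ratio of day 200 over day 100 was −0.30 and −0.03.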

How the data were processed

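RNA-seq of poly-A RNA from 14 livers and small RNA libraries of the same time points were used. The authors aligned RNA-seq reads to mm9 with TopHat and deposited FPKM from Cufflinks 2.2.1, scaled to the upper quartile after ribosomal, small nucleolar and mitochondrial sequences were removed. They aligned small RNA reads to mouse microRNAs with Bowtie 0.12.7 and deposited RPM with 1 added, which was subtracted here. FPKM hold no read numbers, so depth is unknown and no count model was fitted. The 22308 rows were summed to 21888 symbols, 224 of which had several rows.

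limma 3.58.1 in R 4.3.3 (lmFit, eBayes with trend, 9 residual degrees of freedom) was run on log2(FPKM + 1), with the 14 livers in 5 groups (uninjected, day 21, day 45, the late livers, knockout), and p-values were adjusted by Benjamini-Hochberg over the 11770 genes with a threshold of 0.05. Each fold change of a low gene is understated by the added 1. Each library is taken as 1 mouse, so p-values cover the spread between mice, and the spread of the late livers joins both days. A ratio of means is of FPKM. On simulated data for this comparison, with 200 of 11770 genes changed, the fit recovered 50.5% of those moved by 1 on the log2 scale, 91.5% of those moved by 2 and 98% of those moved by 4. It also called 2, 13 and 14 unchanged genes. The simulated noise was independent between livers, with the same spread of a gene in every group and no effects of single livers. The real livers were less even, so these rates do not carry over to them. Other filters, pseudocounts, scalings, libraries left out and a Y term were tried, the last chosen after seeing the data.

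The genes compared and the 47 gene lists were chosen with earlier results of these data known, and lists carry no test of their own. Genes named are the 12 largest rises and falls past the threshold with groups that do not overlap, falls filled up by the lowest p, the members of each list past the threshold (or its 3 most abundant), a set of imprinted and fetal genes, and the 5 largest changes between days 100 and 200. Further rising genes, and list members named although they did not pass, were chosen after their values were seen. Gene places are from the table on mm9 and GENCODE M1 (176 of 179 genes matched), microRNA sequences from RefSeq on GRCm38.p6. Of the 50 genes past the threshold, 13 overlap a gene on the other strand, and the strand setting is not given in the sources used here. Figures were drawn with Python 3.11.15, pandas 2.3.3 and matplotlib 3.10.9.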

Additional observations from a re-analysis of the deposited data

How the results depend on the processing

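The number of genes past the threshold (50, of which 44 higher and 6 lower) depends on the setting, while the direction of each of the 50 held in every fit that tested it. It was 25 (22 and 3) with the 1 FPKM minimum over all 14 libraries, 231 (211 and 20) without a minimum, 1 (1 and 0) with a minimum of 5 FPKM, 6 (5 and 1) with a pseudocount of 0.1, 35 with 29 higher at 0.5, and 3 (3 and 0) with only the 5 livers in the limma fit. Of those 3 genes, 1 was among the 50. In the main limma fit 171 genes were lower at an unadjusted p under 0.05. Quantile scaling gave 42 higher and 14 lower, so 75% of calls were higher against 88%, and leaving out the 4 livers with Y-linked transcripts gave 62 and 12. With 1 library left out the number ran from 6 to 231, the higher from 6 to 221 and the lower from 0 to 10. The cause was not tested.

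The median late difference of genes higher at day 21 (0.12) was −0.080 with quantile scaling and 0.050 to 0.26 with 1 library left out. That of genes lower at day 21 (0.08) was −0.00165 with libraries centred, 0.0065 with quantile scaling and −0.0372 to 0.16 with 1 left out. That of genes higher in the knockout (0.26) was 0.15 with quantile scaling, 0.16 centred and 0.17 to 0.40 with 1 left out. That of genes lower in the knockout (0.04) was 0.019 with a minimum of 5 FPKM, −0.0548 centred, −0.082 with quantile scaling and 0.11 with the Y term. Sign changes over the settings were counted for 35 named genes only. Aldoa, which is not among them, changed sign too (−0.096, and 0.11 without day 45 liver C). Among the 35, those whose difference changed sign were Meg3 (−0.23 without day 100, and −0.66 to 0.70 over all libraries left out, lowest without day 45 A), Rian (−0.13, again without A, to 0.84) and Mirg (−0.0021 with quantile scaling, −0.27 without day 100, and −0.28, without A, to 0.59). Of 578 alternative values of 35 named genes these were 6, 411 kept their side of the threshold, 145 lost it and 16 gained it. Medians of the Kupffer, interferon, p53, P450 and fatty acid oxidation lists stayed below 0, and those of the recruited macrophage, MHC class II, chemokine, matrix protease, ductal, stellate and oncofetal lists above 0, in every setting. Of 46 lists, 17 changed the sign of their median in some setting. These were cell cycle (−0.17 to 0.75), periportal (−0.19 to 0.36), collagens (−0.071 to 0.47), immediate early (−0.061 to 0.42), oxidative phosphorylation (−0.24 to 0.11) and female-biased genes (−0.75 to 1.64), and the lists for B and plasma cells, ER stress, adipose and mesothelium, the circadian clock, gluconeogenesis, growth hormone, secreted hepatocyte proteins, predicted targets of miR-122 and of miR-21, sex chromosome transcripts and the urea cycle. The miR-122 shares from the RPM as deposited differed by less than the spread between mice. No paired analysis was possible because each library is taken as a different mouse. With 1 mouse a day, the late stage's own days cannot be told apart from differences between mice.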

Other observations

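For lists not described above, values are read against all genes, where both late livers lay above day 45 for 24.1% of all genes and below for 7.36%. The neutrophil list, small at 6 tested genes, had both late livers above day 45 for 4 (66.7%) and below for none (median 0.72), and S100a8 and S100a9, the calprotectin subunits, were among those above. The sinusoidal endothelial list had 9 of 25 genes below (36%) and 2 above (median −0.15), oxidative phosphorylation 11 of 72 below (15.3%) and 0 above (median −0.07), and bile acid synthesis and transport 7 of 26 below (26.9%) and 1 above (median −0.23). For lipid droplet proteins 6 of 15 were below (40%) and 0 above (median −0.22), among them perilipin 2 (Plin2). Acute phase proteins had 8 of 30 above (26.7%, near the share of all genes) and 4 below (13.3%, median 0.17). None of the members of these 6 lists passed the limma threshold. At an unadjusted p under 0.05, 0 neutrophil, 1 endothelial, 0 oxidative phosphorylation, 1 bile acid, 0 lipid droplet and 0 acute phase genes were higher, and 0, 2, 0, 3, 2 and 1 were lower. Markers of other tissues were low: of 15 exocrine pancreas genes 9 were listed at 0 in all 5 livers, and their summed level was 20.1 to 31.8 FPKM. Hemoglobin and erythroid genes summed to 71.0 to 154 FPKM in the 5 livers.

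The remaining lists had no member past the limma threshold other than Bmp6 in iron regulation, and at an unadjusted p under 0.05 each had 0 to 9 genes higher and 0 to 1 lower. Predicted targets of miR-21 had 35 of 192 genes above day 45 and 10 below (median 0.13), cell cycle genes 4 of 37 above and 1 below (median 0.29), and NRF2 antioxidant genes 1 of 20 above and 3 below (median −0.25). ER stress genes had 6 of 22 above and 2 below (median 0.11), immediate early genes 4 of 18 above and 1 below (median 0.13), and iron regulation 6 of 20 above and 2 below (median 0.16). For the urea cycle 0 of 13 were above and 2 below (median −0.06), for the growth hormone and IGF axis 4 of 16 above and 1 below (median −0.0071), and for the circadian clock 4 of 18 above and 3 below (median −0.12). Pericentral genes had 1 of 18 above and 4 below (median −0.22), and periportal genes 0 of 16 above and 2 below (median 0.27, but −0.19 to 0.36 over the settings tried). Adipose and mesothelial markers had 3 genes tested, with 0 above and 1 below.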
